A study of Rattus norvegicus with 16 samples.

Results

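The response of microglia to lipopolysaccharide (LPS) was examined in rats that had not been irradiated, by comparing sham-irradiated animals given LPS with sham-irradiated animals given phosphate-buffered saline (PBS). The comparison was chosen by the group labels alone and used 8 of the 16 libraries of the study, 4 per group. All rats were male and of the Wistar (Hsd/Cpb:WU) strain. Both groups had a sham irradiation and, 6 weeks later, an intraperitoneal injection, of the PBS vehicle or of LPS. The other 8 libraries came from rats irradiated with 14 Gy of X-rays and then given PBS or LPS. They entered the estimate of the spread and a test of whether the response differed. Microglia were obtained from whole brain by mechanical dissociation in the cold and sorted on high CD11b, intermediate CD45 and no DAPI staining, and their RNA was sequenced in bulk. The labels give neither the dose of LPS nor the time from injection to cell isolation.

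LPS is a cell wall component of Gram-negative bacteria. It is handed by the co-receptor CD14 to the receptor TLR4 with its partner MD-2, which signals through the adaptors MyD88 and TRIF. The first branch frees NF-kB from its inhibitors and drives cytokine and chemokine genes, the second leads to type I interferon, and both induce inhibitors that end the response. Microglia are the resident macrophages of the brain. They are known for a set of genes typical of the undisturbed brain, among them P2ry12, Tmem119 and Cx3cr1, that falls in inflammation.

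The PBS libraries held between 16849603 and 22482126 counts and the LPS libraries between 16573558 and 19785105, and mitochondrial reads took from 0.588 to 0.689% of them. Along the first principal component of the 8 libraries, which held 64.7% of the variance, the PBS libraries lay between -29 and -25.87 and the LPS libraries between 19.29 and 37.85. Defining microglial genes were abundant in every library, with Cx3cr1 at 13500, 14400, 14600 and 14200 CPM with PBS and at 10600, 11400, 11200 and 10700 CPM with LPS. No label ties a library to an animal, so p-values here reflect the spread among these samples only, which may be technical. In bulk RNA, fewer cells of a type and less RNA per cell cannot be told apart. Levels are CPM, the reads of a gene relative to all counted reads of its library, scaled with TMM factors, in the order of replicates 1 to 4, and each change is a log2 fold change with its SE, from n = 4 libraries a group. A gene is said to have risen or fallen where its adjusted p in edgeR's quasi-likelihood test was under 0.05. Where the values of both groups are printed and no overlap is named, the groups did not overlap. Counts of a gene list are its tested members, and the lists carry no test of their own.

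Of 13608 genes tested, 4031 changed (29.6%), 2063 of them higher (15.2%) and 1968 lower (14.5%) after LPS. The 4 PBS and 4 LPS libraries did not overlap in 4075 genes (29.9%). Changes of at least 2-fold were found in 751 higher and 574 lower genes, and of at least 4-fold in 316 higher and 124 lower genes. The large changes were thus more often increases, whereas the median over all genes was -0.01. Among the genes named below as higher, Aoah, Cebpd, Cgas, Csf3, Cxcl3, Il10, Lcn2, Nos2, Prf1 and Thbs1 were not called in limma voom with sample weights.

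**Figure D1:**
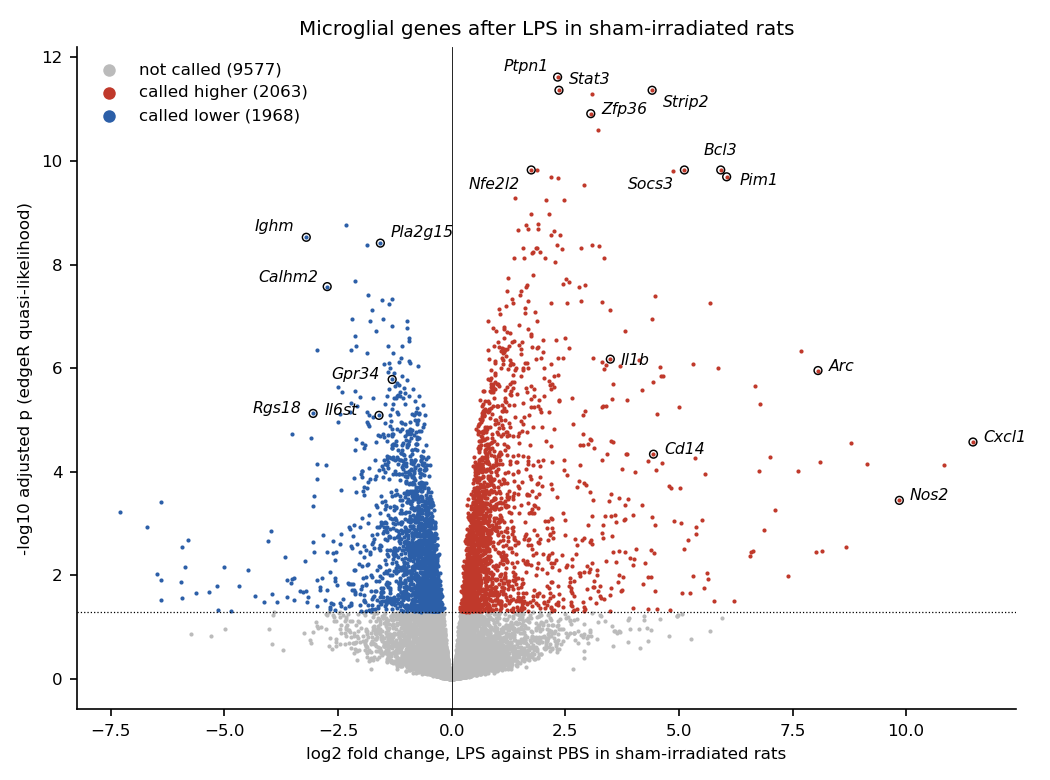
Each point is a gene, with its log2 fold change (LPS against PBS in sham-irradiated rats) on the horizontal axis and the -log10 of its adjusted p on the vertical axis; the dotted line is the threshold of 0.05. Red points are the 2063 genes called higher and blue points the 1968 called lower, and the named genes include Stat3 at 2.36 ± 0.09 and Ighm at -3.20 ± 0.20.

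Recognition of LPS changed in both directions. Of 20 tested genes for LPS receptors, accessory proteins and adaptors, 8 rose and 4 fell (median 0.30). Cd14, the co-receptor that presents LPS, stood at 35.5, 58.3, 47.7 and 19.8 CPM with PBS and at 223, 1130, 1500 and 646 CPM with LPS. All LPS libraries lay above all PBS libraries, but they spread over a wide range, with replicate 1 lowest. The rise was 4.44 ± 0.54 (21.6-fold, adjusted p = 4.57e-05). Tlr4, the signalling receptor, went from 145, 99, 102 and 111 to 74.6, 76.9, 93 and 61.5 CPM. Its groups did not overlap, and it fell by 0.58 ± 0.14 on the log2 scale (adjusted p = 0.0043). Ly96, which encodes MD-2, lay between 1.55 and 2.3 CPM in the 8 libraries (-0.01 ± 0.35, adjusted p = 0.992). Tlr1 (1.76 ± 0.16) and Tlr6 (1.51 ± 0.12), the partners of TLR2 in sensing lipopeptides, rose, while Tlr2 itself did not pass the test (-0.12 ± 0.11, adjusted p = 0.468). Myd88 rose by 0.68 ± 0.09. Ticam2, the bridging adaptor of the TRIF branch, fell by 0.98 ± 0.13, from 107, 111, 100 and 96.4 to 63.4, 56.8, 42.2 and 46.8 CPM. Cd180 and Ly86, a receptor pair related to TLR4 and MD-2 that restrains LPS signalling in macrophages, fell by 0.88 ± 0.12 and 0.42 ± 0.09. Aoah, the enzyme that deacylates LPS, had overlapping groups and a rise of 0.53 ± 0.16 that was lost without any of 4 single libraries (PBS 1 or 2, LPS 2 or 3; adjusted p up to 0.0755).

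NF-kB genes rose in most cases: 11 of 18 subunits, kinases and inhibitors were higher and 1 was lower. Nfkbia, which encodes the inhibitor that holds NF-kB in the cytoplasm and is itself an NF-kB target, went from 253, 124, 174 and 165 to 837, 617, 623 and 817 CPM. The groups were far apart and the rise was 2.02 ± 0.18 (4.04-fold). Bcl3, an atypical nuclear member of the inhibitor family, went from 0.669, 1.15, 0.828 and 1.88 to 69.9, 50.1, 87.4 and 70.3 CPM. It was close to absent in each PBS library and rose by 5.92 ± 0.28. Among the subunits the rises were smaller: Relb by 1.36 ± 0.24, Nfkb2 by 1.56 ± 0.37, Rel by 0.93 ± 0.17 and Nfkb1 by 0.76 ± 0.11. Map3k8, the kinase that links NF-kB1 to ERK signalling, went from 168, 100, 131 and 122 to 498, 380, 600 and 445 CPM, a rise of 1.89 ± 0.16. Nfkbiz, a nuclear inhibitor family member needed for secondary response genes, rose by 2.86 ± 0.18.

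**Figure D2:**
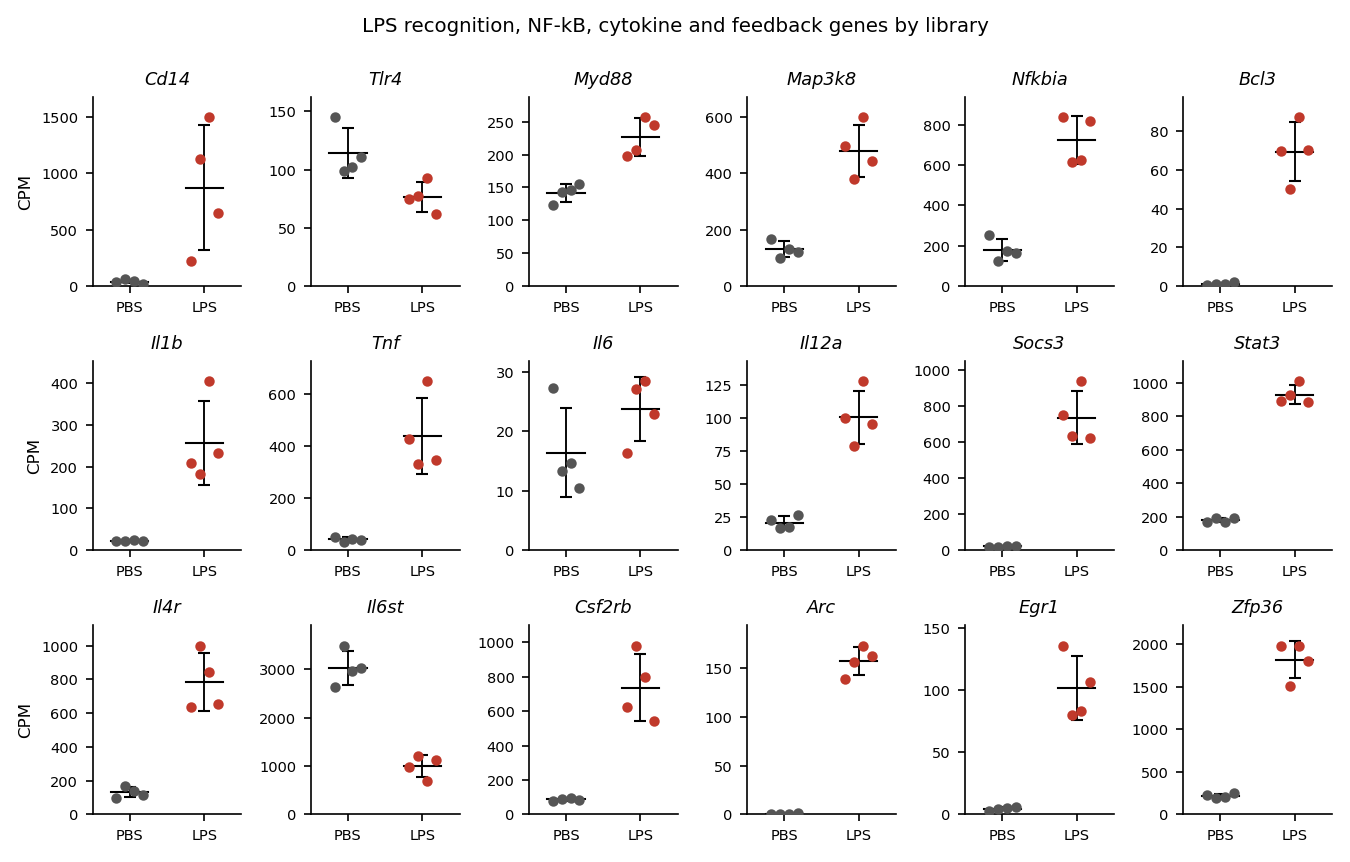
CPM of 18 genes in each sham-irradiated library, PBS in grey and LPS in red; bars are the mean ± SD of 4 libraries and each axis starts at 0. Cd14 spreads from 223 to 1500 CPM among LPS libraries, Tlr4 and Il6st lie lower with LPS, and the Il6 groups overlap.

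Windows at the annotated start of 4 genes of the response are shown because these genes are textbook targets of NF-kB, STAT3 or interferon signalling. Sequences are the RefSeq windows around the annotated start (build GRCr8), 300 bases each, written 5′ to 3′ on the strand of the gene. Capitals mark a match, on either strand, to an NF-kB motif (GGG, any 2 bases, then TTTCC), a STAT motif (TTCNNNGAA) or an interferon-stimulated response element (GAAA, any 2 bases, then GAAA).
Nfkbia (chr6:78597023-78597322, minus strand): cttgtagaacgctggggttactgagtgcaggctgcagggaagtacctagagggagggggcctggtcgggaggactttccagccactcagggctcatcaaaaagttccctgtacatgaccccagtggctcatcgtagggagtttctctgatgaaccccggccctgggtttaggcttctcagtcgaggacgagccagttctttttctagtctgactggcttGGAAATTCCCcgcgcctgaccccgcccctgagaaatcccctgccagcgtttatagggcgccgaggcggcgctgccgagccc
Cxcl10 (chr14:15988816-15989115, plus strand): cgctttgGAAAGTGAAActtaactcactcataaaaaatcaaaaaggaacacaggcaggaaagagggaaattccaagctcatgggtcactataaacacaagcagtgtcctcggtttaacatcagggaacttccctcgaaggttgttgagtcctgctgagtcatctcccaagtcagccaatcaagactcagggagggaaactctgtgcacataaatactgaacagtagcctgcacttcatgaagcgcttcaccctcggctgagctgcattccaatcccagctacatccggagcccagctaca
Bcl3 (chr1:88613506-88613805, minus strand): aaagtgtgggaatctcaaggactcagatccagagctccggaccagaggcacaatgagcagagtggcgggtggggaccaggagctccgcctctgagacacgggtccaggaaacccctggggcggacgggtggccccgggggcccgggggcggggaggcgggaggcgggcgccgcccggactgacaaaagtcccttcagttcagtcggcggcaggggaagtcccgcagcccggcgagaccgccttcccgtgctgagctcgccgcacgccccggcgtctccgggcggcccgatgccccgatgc
Socs3 (chr10:103694719-103695018, minus strand): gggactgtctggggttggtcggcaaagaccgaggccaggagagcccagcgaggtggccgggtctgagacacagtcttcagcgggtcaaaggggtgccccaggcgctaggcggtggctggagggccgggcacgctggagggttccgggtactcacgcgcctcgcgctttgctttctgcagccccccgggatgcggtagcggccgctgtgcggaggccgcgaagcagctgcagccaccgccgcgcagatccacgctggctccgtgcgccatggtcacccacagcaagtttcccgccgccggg
Nfkbia held 1 NF-kB match, from -31 to -22 relative to the start, and Cxcl10 held 1 interferon element match, from -243 to -234. Bcl3 and Socs3 held no match to these letters in the window. The NF-kB letters are strict: similar stretches, gggaagtccc in Bcl3 and gggaacttcc and gggaaattcc in Cxcl10, do not match them and were not counted. A single annotated start was used per gene, and sites outside its window or at another start were not searched. The Socs3 window runs into the coding sequence, which opens at the letters atggtcacc near its end, so it may hold little of the promoter. Whether the Socs3 and Bcl3 windows cover the promoter in use was not tested. No match here therefore does not mean that these genes lack such sites. A promoter was matched by symbol for 9591 of 12303 tested genes with a symbol. Of promoters of genes called higher, 2.55% of 1566 held the NF-kB motif, against 1.68% of 1487 called lower, 1.73% of the 9591 and 1.51% of all 27457 promoters of the table. The STAT motif stood in 8.68% of the higher, 5.99% of the lower, 6.77% of the tested and 8.68% of all promoters. For the interferon element the shares were 3.9%, 2.62%, 2.95% and 3.77%. Among the 208 promoters of genes that rose at least 4-fold, the shares were 5.29% (NF-kB), 13.5% (STAT) and 6.73% (interferon element). A match describes the letters only, and no test of these shares was made.

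Of 24 cytokine genes 12 rose and 3 fell (median 0.52). Il1b, the main secreted interleukin 1 of microglia, went from 21.2, 22.4, 25.4 and 22.6 to 208, 183, 404 and 232 CPM, with no overlap and a rise of 3.49 ± 0.29. Tnf went from 52, 33.3, 41.7 and 40.4 to 425, 330, 647 and 347 CPM (rise 3.39 ± 0.35), with replicate 3 highest in both of these genes among LPS libraries. Il1rn, the natural antagonist of the interleukin 1 receptor, rose by 4.31 ± 0.57, from 1.09, 1.64, 1.29 and 0.445 to 5.28, 24.2, 21.3 and 38.5 CPM. Il12a, a subunit shared by interleukins 12 and 35, went from 23, 16.5, 17.5 and 26.6 to 100, 79.2, 128 and 95.8 CPM (2.27 ± 0.16). Its partner subunit gene Il12b stayed under 1 CPM in every library (0.04 ± 0.72, adjusted p = 0.975). Il6 had overlapping groups, 27.3, 13.3, 14.6 and 10.5 CPM with PBS and 16.4, 27.1, 28.4 and 22.9 CPM with LPS. Its difference was 0.53 ± 0.30 (adjusted p = 0.2), and without PBS replicate 1 the gene was called higher (0.89, adjusted p = 0.0274). Il1a did not pass either (0.40 ± 0.39, adjusted p = 0.493), with PBS values from 13 to 66.1 CPM. Il10 was called (3.01 ± 0.81) at levels of at most 2.29 CPM, with LPS replicate 1 inside the PBS range. Il18 rose by 0.52 ± 0.10. Csf1, a growth factor for microglia and macrophages, rose by 3.40 ± 0.32, from 6.02, 3.69, 4.1 and 5.69 to 34.8, 63.9, 74.5 and 32 CPM. Il16, a chemoattractant for cells with CD4, fell from 300, 291, 236 and 308 to 91.6, 78.5, 30.8 and 65.9 CPM, by 2.09 ± 0.23 on the log2 scale.

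Of 20 chemokine genes 14 rose and the other 6 did not pass (median 2.72). Cxcl10, which attracts T and NK cells through CXCR3, went from 7, 12.2, 6.26 and 5.64 to 103, 96.9, 162 and 77 CPM, a rise of 3.82 ± 0.29. Neutrophil-attracting chemokines were near 0 with PBS. Cxcl1 had 0 counts in the 4 PBS libraries together and stood at 15.5, 10.1, 18.9 and 15.2 CPM with LPS, at least 388-fold higher against a floor of 3 counts over the group. Cxcl3 had 2 counts with PBS and 279 with LPS, a ratio of 156 (42.8 to 1290, exact 95% interval for counting error only). Cxcl2 rose by 4.60 ± 0.47 to at most 9.29 CPM. Csf3, the granulocyte growth factor, was at 0 in all PBS libraries and at 0.668, 1.27, 1.78 and 4.79 CPM with LPS (at least 56.6-fold higher). Among monocyte-attracting chemokines, Ccl2 went from 8.52, 10.5, 9.3 and 3.61 to 42, 60.4, 76.6 and 61.9 CPM (2.92 ± 0.43) and Ccl3 rose by 1.89 ± 0.30. Ccl5 rose by 2.91 ± 0.58, with 11.7, 25, 80.9 and 69.8 CPM in the LPS libraries: replicates 3 and 4 were several times above replicates 1 and 2. Cxcl13, a B cell attractant, did not pass (1.05 ± 0.49, adjusted p = 0.125), and was called higher without LPS replicates 1 and 2 (1.56, adjusted p = 0.0433; chosen after seeing the data).

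Receptors for cytokines divided into 18 higher and 8 lower of 33. Csf2rb, the common signalling chain for GM-CSF, interleukin 3 and interleukin 5, went from 79.3, 92.3, 93 and 83 to 622, 980, 799 and 541 CPM. No library overlapped and the rise was 3.08 ± 0.19 (8.47-fold). Il4r, the interleukin 4 receptor chain, went from 98.2, 168, 137 and 117 to 638, 1000, 842 and 654 CPM (2.59 ± 0.18). Il1r2, a decoy receptor for interleukin 1, rose from 0.182, 0.15, 0 and 0.148 to 11.2, 11.3, 17.8 and 12.9 CPM (6.79 ± 0.73). Il18rap, the accessory chain of the interleukin 18 receptor, rose by 3.86 ± 0.50, from 3.22, 3.94, 2.62 and 1.63 to 20.1, 64.6, 58.5 and 22 CPM, with replicates 2 and 3 above 1 and 4. Il6st, which encodes gp130, the shared signal transducer of the interleukin 6 family, fell from 2630, 3490, 2970 and 3020 to 984, 1210, 695 and 1120 CPM. The groups were well apart and the fall was by 1.60 ± 0.19 on the log2 scale. Lifr and Osmr encode receptor chains that pair with gp130. Lifr rose by 3.62 ± 0.72, from at most 0.669 CPM with PBS. Osmr had 1 count with PBS and 37 with LPS, a ratio of 41.4 (6.98 to 1680, counting error only). The interleukin 10 receptor gene Il10ra fell by 0.65 ± 0.12 and the monocyte chemokine receptor gene Ccr2 by 1.81 ± 0.42. Csf1r, the receptor for CSF1, did not pass (-0.15 ± 0.07, adjusted p = 0.119) and was called lower when scaled by library totals alone (-0.18, adjusted p = 0.0301).

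Of 17 genes of JAK-STAT signalling downstream of these receptors, 13 rose and 1 fell. Stat3, the factor activated by interleukins 6 and 10, went from 171, 192, 166 and 194 to 895, 926, 1010 and 884 CPM. The 4 LPS libraries were within a narrow range far above PBS, a rise of 2.36 ± 0.09 (5.14-fold, adjusted p = 4.31e-12). Pim1, a STAT-induced survival kinase, went from 0.426, 0.349, 0.368 and 0.445 to 18, 22.3, 35.7 and 30.7 CPM (6.05 ± 0.31). Cebpd, a transcription factor of the acute phase response, went from 0.365, 2.84, 4.92 and 7.77 to 15.2, 47.2, 92.5 and 155 CPM. It spread widely in both groups, and the rise of 4.26 ± 0.99 was called in edgeR and not in limma voom (adjusted p = 0.0646).

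Feedback inhibitors rose with the response: 17 of 31 were higher and 1 was lower. Socs3, which blocks signalling through gp130, went from 15.9, 19.1, 23.7 and 25.7 to 750, 635, 936 and 621 CPM (5.12 ± 0.22). Socs1 (4.62 ± 0.69) and Cish (5.34 ± 0.73) of the same family rose from under 1 CPM. Zfp36, which encodes tristetraprolin, a protein that destabilises cytokine mRNAs, went from 223, 194, 203 and 250 to 1970, 1510, 1980 and 1800 CPM. All LPS libraries lay at least 1510 CPM, above a PBS maximum of 250 CPM, and the rise was 3.06 ± 0.13. Ptpn1, a phosphatase that acts on JAK kinases, went from 137, 152, 154 and 151 to 696, 754, 792 and 740 CPM (2.33 ± 0.08). The ubiquitin editor gene Tnfaip3 rose less (0.77 ± 0.17), as did the ribonuclease gene Zc3h12a (0.94 ± 0.20). Tnip3, whose protein binds the product of Tnfaip3, was at 0 in all PBS libraries and at 0.303, 0.829, 0.974 and 0.771 CPM with LPS (at least 19-fold higher).

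Of 26 immediate early genes 18 rose and 8 did not pass (median 1.78). Egr1 went from 2.98, 4.24, 5.02 and 5.99 to 136, 79.7, 83.7 and 107 CPM (4.47 ± 0.32), Fos from 5.47, 3.29, 1.93 and 3.71 to 48.5, 34.6, 48.1 and 36.7 CPM (3.55 ± 0.36), and Atf3 rose by 3.04 ± 0.38. Ier3, an early response gene linked to survival, rose by 1.75 ± 0.16 and Phlda1 by 2.94 ± 0.22. The largest change with a mean log2 CPM of 3 or more belonged to Arc, a cytoskeletal gene best known as an activity-induced gene of neurons. Arc stood at 0.304, 0.598, 0 and 1.44 CPM with PBS and at 139, 156, 173 and 162 CPM with LPS. Every LPS library was far above the highest PBS library, and the rise was 8.06 ± 0.68 (adjusted p = 1.11e-06). Of 13 tested neuron markers 0 passed in edgeR, with 0 at an unadjusted p under 0.05 and 0 in DESeq2 or limma voom. Their mean log2 CPM was 0.61, 0.82, -0.62 and -0.96 in the LPS libraries, with replicates 1 and 2 above and replicates 3 and 4 below the PBS range of -0.41 to 0.22. The part of neuronal RNA in the level of Arc was not tested. Strip2, a component of the STRIPAK phosphatase complex, went from 3.89, 4.14, 2.9 and 5.74 to 92.3, 82.4, 100 and 79.1 CPM, with a rise of 4.41 ± 0.17 (adjusted p = 4.31e-12).

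Interferon-linked genes rose unevenly across libraries. Of 52 genes of the type I response, 25 rose and 2 fell (median 0.83). The mean log2 CPM of the list was 4.32, 4.31, 3.90 and 4.12 with PBS and 4.26, 5.08, 5.76 and 4.97 with LPS, so LPS replicate 1 lay inside the PBS range and replicate 3 was highest. Ifit3, an interferon-induced antiviral gene, went from 12.6, 14.2, 4.6 and 5.89 to 31.1, 112, 264 and 110 CPM (3.80 ± 0.61), and Ifit2 from 24.1, 31.6, 13.9 and 19.2 to 46.3, 175, 374 and 165 CPM (3.10 ± 0.49). In both, LPS replicate 1 was the lowest and replicate 3 the highest of the LPS libraries. Irf7, the amplifier of type I interferon, overlapped between groups at 20.3, 74.6, 131 and 88 CPM with LPS (2.22 ± 0.44). Mx1 did not pass (0.50 ± 0.31, adjusted p = 0.255) and was called higher without LPS replicate 1 (0.76, adjusted p = 0.018). Without LPS replicates 1 and 2, a choice made after seeing these values, 30 members rose and 1 fell.

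Of 24 genes induced by interferon gamma 12 rose and 12 did not pass. Their mean log2 CPM of 5.01, 5.42, 5.80 and 5.48 with LPS lay above the PBS values of 4.09, 4.17, 4.01 and 4.22 in every library. Irf1 went from 79.4, 67.5, 72.6 and 92.4 to 401, 403, 585 and 389 CPM (2.51 ± 0.18). Gbp2, a guanylate-binding protein of cell-autonomous defence, rose by 0.84 ± 0.18 and Tap1, a peptide transporter for MHC class I, by 2.05 ± 0.14. Cd274, the gene of the T cell checkpoint ligand PD-L1, rose by 0.99 ± 0.20, from 6.57, 9.67, 7.09 and 6.68 to 9.95, 14.1, 17.5 and 17.8 CPM. The transcript of Ifng itself had 0 counts in all 8 libraries.

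Sensors of nucleic acids changed in both directions, with 9 higher and 5 lower of 19. Tlr9, the endosomal DNA receptor, fell from 21, 26.6, 30.2 and 27.3 to 11.8, 16.1, 6.53 and 6.67 CPM (1.35 ± 0.26 on the log2 scale), and the RNA receptor gene Tlr8 fell by 2.01 ± 0.45. Tlr7 rose by 0.63 ± 0.10, from 594, 566, 552 and 518 to 853, 919, 753 and 931 CPM, without overlap. Irf5, a transcription factor downstream of these receptors, fell from 347, 374, 333 and 348 to 169, 193, 190 and 183 CPM (0.93 ± 0.08). The cytosolic DNA sensor gene Cgas (2.12 ± 0.50) and Samhd1 (1.66 ± 0.39), a nuclease that limits nucleic acid sensing, were called higher. In both of them LPS replicate 1, at 3.95 and 28.2 CPM, lay in the PBS range. Inflammasome genes were mixed (7 higher, 4 lower of 20): Nlrp3 (0.32 ± 0.12, adjusted p = 0.0581) and Casp1 (0.10 ± 0.11, adjusted p = 0.523) did not pass. However, Nlrp3 was called higher without PBS replicate 2 or LPS replicate 4 (0.43 and 0.37). It was also called in limma voom (0.34) and with replicate number in the model (0.32). Nlrc4, another sensor of the family, fell by 0.65 ± 0.15.

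Glucocorticoid-responsive genes rose in 12 of 19 cases and 1 fell (median 1.76). Fkbp5, a co-chaperone of the glucocorticoid receptor, went from 4.08, 2.19, 4.37 and 4.06 to 95.7, 69.3, 57.6 and 88.9 CPM (4.40 ± 0.33). Tsc22d3, which encodes the glucocorticoid-induced leucine zipper, went from 167, 80.6, 125 and 74.7 to 327, 282, 190 and 300 CPM (1.29 ± 0.24). Nr3c1, the receptor itself, fell by 0.86 ± 0.14, from 104, 103, 103 and 77.1 to 65.3, 54.1, 47.6 and 46.2 CPM. Clock genes moved as well: Per1 (3.74 ± 0.53), Per2 (1.81 ± 0.34) and Cry1 (1.73 ± 0.44) rose, whereas Arntl (-0.52 ± 0.14) and Bhlhe40 (-1.29 ± 0.25) fell. Of 17 clock genes, 6 rose and 2 fell. Without PBS replicate 4 the number that fell was 4. Per1 is in both lists, and the time of day of sampling is not given in the sources used here.

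**Figure D3:**
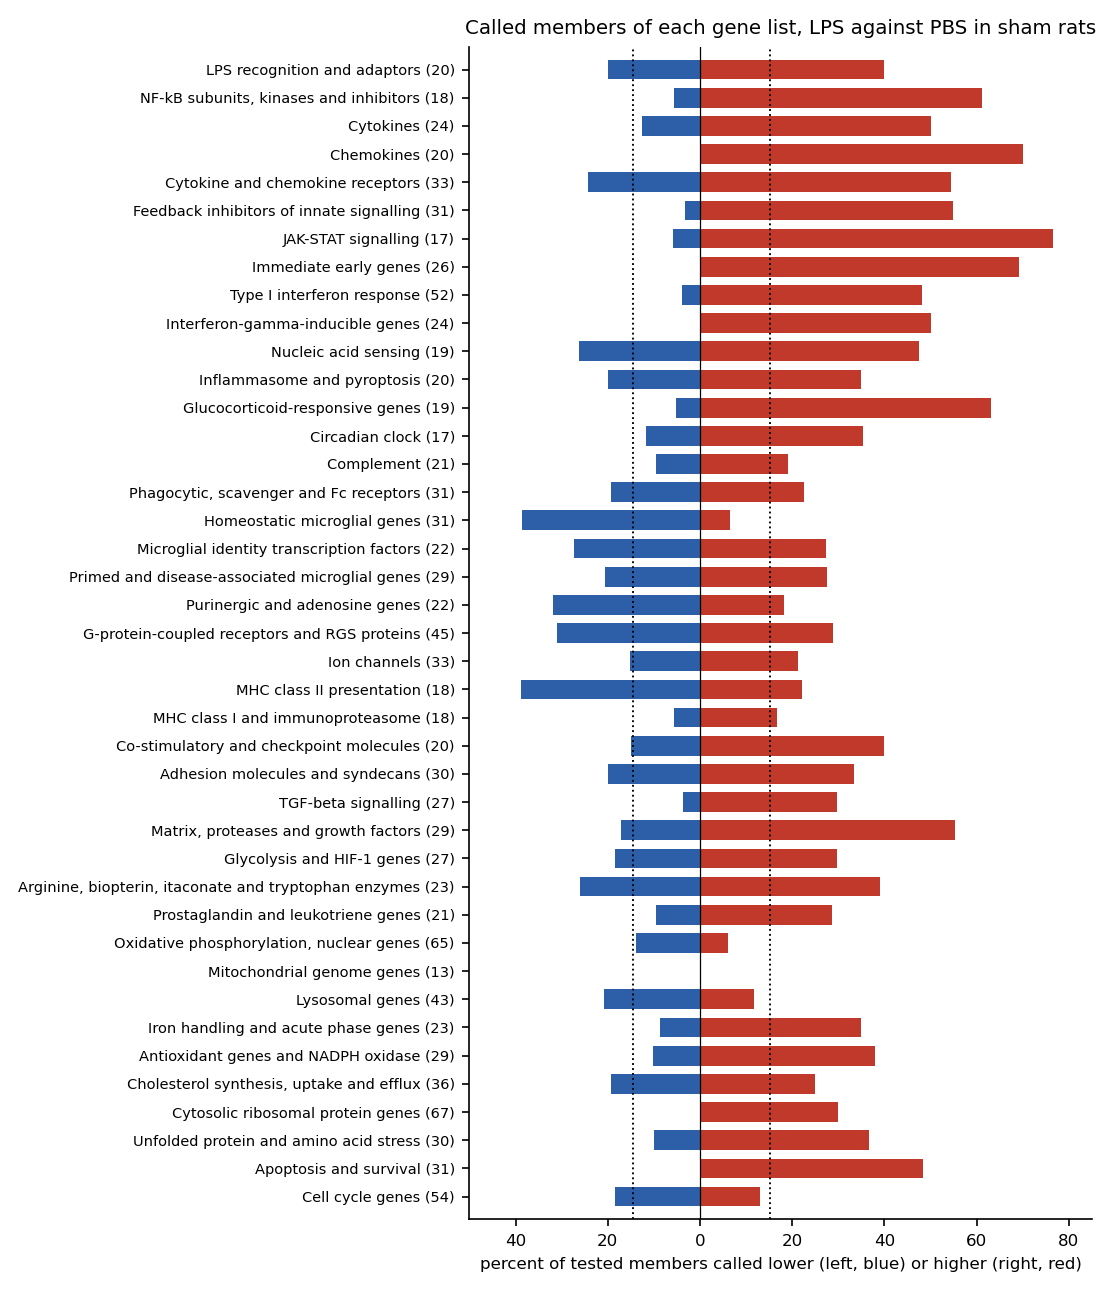
Bars give the percent of tested members of each gene list called higher (right, red) or lower (left, blue) after LPS in sham-irradiated rats, with the number tested in brackets; dotted lines mark 15.2% higher and 14.5% lower over all genes. JAK-STAT signalling, chemokines and immediate early genes have the highest shares of higher members, and homeostatic microglial and MHC class II genes of lower members.

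Genes of undisturbed microglia fell in part. Of 31 tested homeostatic genes, 12 fell, 2 rose and 17 did not pass (median -0.34, against -0.01 over all genes). With library totals alone 16 fell. The mean log2 CPM of the list was 9.98, 9.93, 9.96 and 9.97 with PBS and 9.68, 9.71, 9.61 and 9.74 with LPS, lower in every LPS library. Gpr34, a receptor for lysophosphatidylserine, fell most, from 5630, 5440, 5720 and 5310 to 2090, 2070, 2210 and 2510 CPM (1.31 ± 0.14 on the log2 scale). P2ry12, the ADP receptor that steers microglial processes, overlapped at 573, 404, 759 and 479 CPM with PBS and 419, 314, 292 and 251 CPM with LPS, with a fall of 0.80 ± 0.18. P2ry13, a related ADP receptor, fell by 0.59 ± 0.11. Tgfbr1, a receptor chain for TGF-beta, which maintains the microglial state, fell by 0.53 ± 0.10, from 3820, 4070, 3810 and 3850 to 3040, 2580, 2490 and 2660 CPM. Trem2 fell by 0.45 ± 0.09 and Cx3cr1 by 0.37 ± 0.10. Tmem119, a surface marker of microglia, had overlapping groups, 4810, 4520, 6470 and 4280 CPM with PBS and 5340, 6440, 3990 and 7090 CPM with LPS, and did not pass (0.19 ± 0.19, adjusted p = 0.494). Slc2a5, the fructose transporter of microglia, rose by 0.38 ± 0.11. That call was lost without PBS replicate 1 or LPS replicate 4 (adjusted p up to 0.0505).

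Transcription factors of microglial identity moved in both directions, 6 higher and 6 lower of 22. Etv5 fell from 281, 342, 326 and 315 to 141, 146, 106 and 129 CPM (1.27 ± 0.13), and Maf from 107, 102, 106 and 105 to 52, 53.6, 52.3 and 54.7 CPM (0.98 ± 0.09), each with tight replicates. Fli1 (-0.88 ± 0.11), Mitf (-0.98 ± 0.16) and Sall1 (-0.40 ± 0.10) fell too. Runx1, a factor of myeloid development, rose from 42.2, 40.4, 53.5 and 45.1 to 136, 165, 225 and 198 CPM (2.00 ± 0.27). Tfec (1.92 ± 0.33) and Jdp2 (3.04 ± 0.52) rose from low levels. Irf8 (0.27 ± 0.12, adjusted p = 0.113) and Mef2c (0.04 ± 0.10, adjusted p = 0.798) did not pass. However, Irf8 was called higher without LPS replicate 1 (0.36, adjusted p = 0.0296) and with replicate number in the model (0.26). Genes of primed and disease-associated microglia held no common direction (8 higher, 6 lower of 29). Apoe (-0.12 ± 0.09, adjusted p = 0.341), Clec7a (0.09 ± 0.24, adjusted p = 0.826) and Spp1 (1.83 ± 0.96, adjusted p = 0.168) did not pass, and the receptor kinase gene Axl fell by 0.86 ± 0.22.

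Purinergic and other G-protein-coupled receptors held several of the larger falls. Of 22 purinergic genes 7 fell and 4 rose, and of 45 other receptors and regulators 14 fell and 13 rose. Adora3, an adenosine receptor, went from 564, 513, 634 and 506 to 174, 238, 190 and 183 CPM (2.82-fold lower). Adora1 fell by 1.27 ± 0.24. P2ry6, the UDP receptor that triggers phagocytosis, rose by 0.43 ± 0.08, and the ion channel receptors P2rx4 (0.12 ± 0.24, adjusted p = 0.747) and P2rx7 (-0.04 ± 0.08, adjusted p = 0.739) did not pass. Rgs18, which shortens G-protein signals, fell from 27.6, 17.1, 15.1 and 13.6 to 0.668, 3.59, 1.72 and 2.75 CPM (3.05 ± 0.35), and Rgs2 fell by 1.23 ± 0.22. Receptors for lysophosphatidic acid fell: Lpar5 from 65.4, 61.1, 71.9 and 64.3 to 13.2, 16, 7.16 and 11.3 CPM (2.46 ± 0.29) and Lpar4 by 2.83 ± 0.59. In contrast Lpar1 and Lpar6 were among the 13 that rose. Hrh3, a histamine receptor, fell by 2.16 ± 0.34. Gpr84, a receptor for medium-chain fatty acids, rose by 0.97 ± 0.14 and Hcar2, the niacin and ketone body receptor, by 1.70 ± 0.27, from 144, 127, 121 and 129 to 272, 556, 537 and 322 CPM.

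Among ion channels 7 rose and 5 fell of 33, 36.4% against 29.6% over all genes. Calhm2, a channel for ATP release, fell from 33, 45.7, 37.1 and 39.9 to 5.95, 7.46, 3.27 and 6.61 CPM (2.74 ± 0.21), and the potassium channel gene Kcna2 fell by 2.18 ± 0.45. Lrrc8a, the essential subunit of the volume-regulated anion channel, rose from 12, 12.7, 14 and 14.2 to 57.7, 74, 56.4 and 72.7 CPM (2.30 ± 0.21). Other large falls were in the gene AABR07059663.1, which has no further name (-2.33 ± 0.14), Ypel2 (-2.96 ± 0.28), the glycan-cleaving enzyme gene Engase (-2.22 ± 0.21), the mitotic gene Fam83d (-2.21 ± 0.24), the lysosomal transporter gene Slc46a3 (-2.20 ± 0.18), the lipoxygenase gene Alox12 (-2.12 ± 0.16) and the reelin receptor gene Vldlr (-2.12 ± 0.19).

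**Figure D4:**
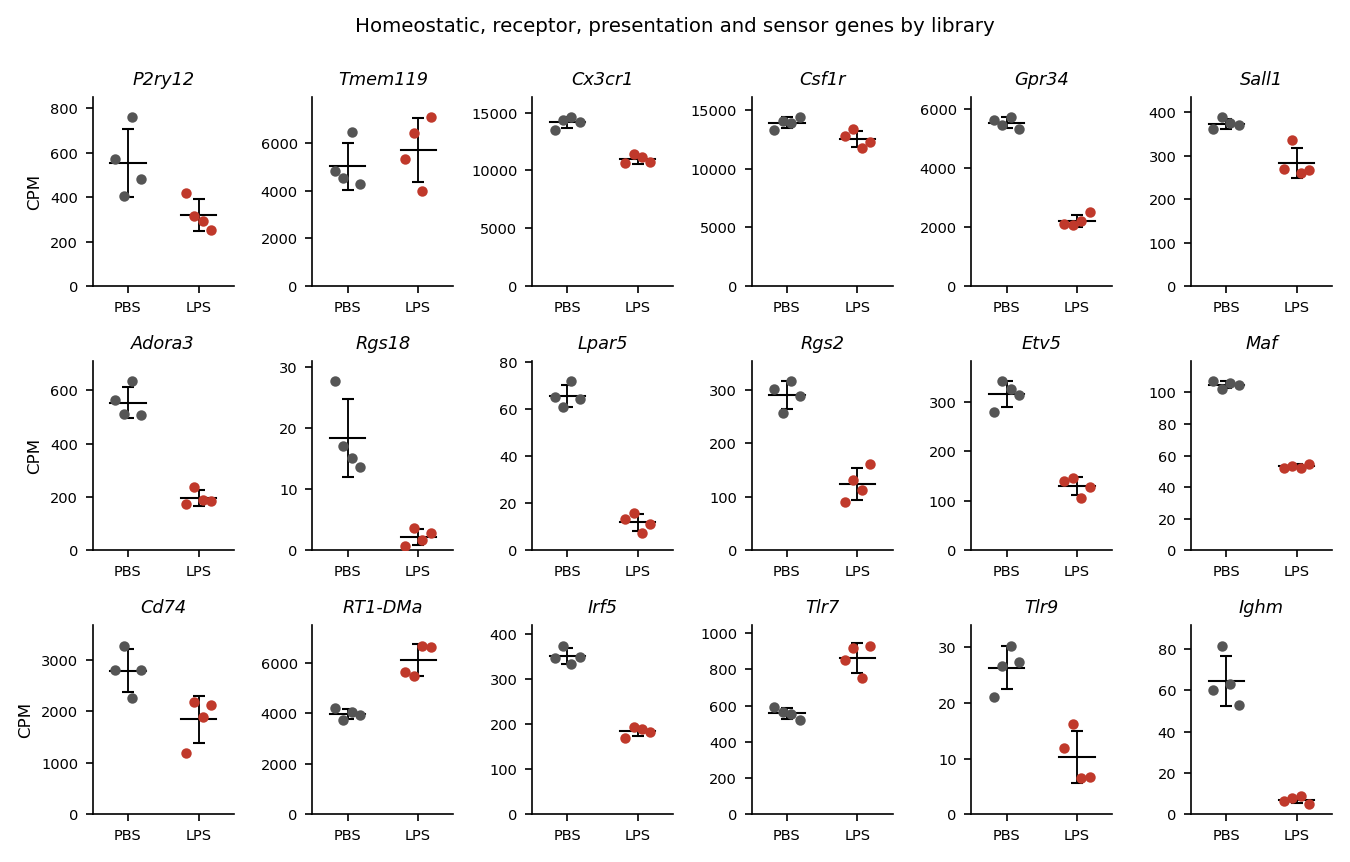
CPM of 18 genes in each sham-irradiated library, PBS in grey and LPS in red; bars are the mean ± SD of 4 libraries and each axis starts at 0. Gpr34, Adora3, Lpar5 and Irf5 are lower in every LPS library than in any PBS library, while P2ry12 and Tmem119 overlap and Tlr7 and RT1-DMa are higher.

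Antigen presentation genes of MHC class II changed in both directions. Of 18 genes 7 fell and 4 rose. Without PBS replicate 3 the number that fell was 4. Cd74, the invariant chain, went from 2800, 3270, 2260 and 2800 to 1180, 2180, 1890 and 2110 CPM (0.60 ± 0.15 lower), with LPS replicate 1 lowest. The class II chain genes RT1-Db1 (-0.77 ± 0.22) and RT1-Ba (-0.52 ± 0.16) fell. RT1-Ba was not called without PBS replicate 2 or 3 (adjusted p up to 0.0592). RT1-DMa, part of the peptide editor, rose from 4200, 3730, 4040 and 3930 to 5610, 5480, 6670 and 6600 CPM (0.62 ± 0.13), and its partner RT1-DMb rose by 0.36 ± 0.09. RT1-DOa, part of the inhibitor of that editor, fell by 1.17 ± 0.31. Ifi30, a lysosomal thiol reductase, rose by 0.80 ± 0.08, and Marchf1, a ligase that removes class II from the surface, rose from 187, 157, 170 and 160 to 307, 319, 330 and 324 CPM (0.93 ± 0.10). RT1 genes are close paralogs, and reads may be split between copies. Of 18 MHC class I genes 3 rose and 1 fell, 22.2% against 29.6% over all genes. Without LPS replicate 1 the number higher was 5.

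Complement genes rose in 4 and fell in 2 of 21 cases, 28.6% against 29.6% over all genes. C1qa, a chain of the initiator of the classical pathway, was called higher (0.30 ± 0.10), but its groups overlapped and the call was lost without any of 5 single libraries (PBS 1, 2 or 4, LPS 3 or 4; adjusted p up to 0.101). C3 did not pass (-0.03 ± 0.13, adjusted p = 0.886), and C5ar2, a receptor for the fragment C5a, fell by 0.53 ± 0.08. Itgax, an integrin chain of activated microglia, rose from 10.1, 8.22, 9.11 and 5.79 to 20.5, 34, 32.2 and 18.9 CPM (1.67 ± 0.23). Of 31 phagocytic, scavenger and Fc receptors 7 rose and 6 fell, 41.9% against 29.6% over all genes. Without PBS replicate 1 the number that rose was 4. Trem1, an amplifier of inflammation, rose by 3.31 ± 0.38, and the lipoprotein receptor gene Scarb1 fell by 0.93 ± 0.12.

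Adhesion and migration genes rose in 10 and fell in 6 of 30 cases. Sdc4, a cell surface proteoglycan, went from 5.35, 5.48, 4.42 and 8.51 to 74.5, 214, 175 and 134 CPM (4.65 ± 0.41), and Icam1, the ligand of leukocyte integrins, from 83.5, 90.9, 100 and 91 to 354, 358, 353 and 267 CPM (1.86 ± 0.12). Vcam1, another such ligand, did not pass (0.78 ± 0.29, adjusted p = 0.0506), and was called higher in DESeq2 (adjusted p = 0.0162) and without PBS replicate 2 (1.02) or LPS replicate 4 (0.92). Cytip, which loosens integrin adhesion, fell by 2.42 ± 0.27. Of 29 matrix, protease and growth factor genes 16 rose and 5 fell. Thbs1, a matrix protein that activates TGF-beta, had 2 counts in the PBS libraries together and stood at 20.5, 76.1, 32.5 and 93.6 CPM with LPS. The ratio was 2220 (616 to 18400, exact 95% interval for counting error only). Id1, a target of BMP signalling, rose from 17.2, 18.3, 18.4 and 15.7 to 98.7, 173, 308 and 219 CPM (3.52 ± 0.35). Mmp28, a matrix metalloproteinase, fell by 1.14 ± 0.20.

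Enzymes of arginine, biopterin and itaconate metabolism showed 9 rises and 6 falls of 23. Nos2, the inducible nitric oxide synthase, had 1 count in the PBS libraries and stood at 8.13, 18.4, 21.6 and 18.1 CPM with LPS, a ratio of 1310 (235 to 51800, counting error only). Acod1, which makes itaconate, was at 0 in all PBS libraries and at 0.91, 4.7, 3.67 and 2.42 CPM with LPS (at least 77.5-fold higher). Arg1, an arginase that competes with nitric oxide synthase for arginine, also rose, to 2.61, 1.49, 3.73 and 5.73 CPM (5.38 ± 1.08). Gch1, the entry enzyme for biopterin, the cofactor of nitric oxide synthase, rose from 2.25, 2.34, 3.36 and 3.61 to 23.6, 21.3, 40.5 and 33.2 CPM (3.35 ± 0.23). The next enzymes of that pathway fell, Pts by 1.30 ± 0.19 and Spr by 0.70 ± 0.15. Ptgs2, the inducible cyclooxygenase, had 1 count with PBS and at most 1.27 CPM with LPS (ratio 58.1, 9.98 to 2340, counting error only). Ch25h, which makes the antiviral oxysterol 25-hydroxycholesterol, rose from 342, 150, 187 and 147 to 1580, 1730, 3190 and 1990 CPM (3.36 ± 0.29). The cholesterol exporter gene Abcg1 fell by 0.74 ± 0.11, and Pla2g15, a lysosomal phospholipase, by 1.57 ± 0.10.

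Glycolysis genes did not move as a block, with 8 higher and 5 lower of 27. The number lower was from 2 to 3 without any 1 of 7 of the 8 sham libraries (all but LPS replicate 2). Ldha, which makes lactate, rose from 252, 205, 249 and 257 to 565, 556, 852 and 713 CPM (1.48 ± 0.13), Gapdh rose by 0.72 ± 0.11, and Pfkfb3, an activator of the pathway, by 1.47 ± 0.33. Hif1a rose by 0.63 ± 0.09. Hk2, the inducible hexokinase, fell by 0.39 ± 0.07, from 399, 393, 418 and 377 to 298, 304, 320 and 291 CPM. Nuclear genes of oxidative phosphorylation changed in 13 of 65 cases (4 higher, 9 lower), 20% against 29.6% over all genes. Without LPS replicates 1 and 2 the number lower was 3. Of 13 genes of the mitochondrial genome 0 passed in edgeR, 0 at an unadjusted p under 0.05, and 0 in DESeq2 or limma voom.

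Stress defence genes rose in part. Sod2, the mitochondrial superoxide dismutase, went from 70.7, 61.2, 77.7 and 73.3 to 231, 289, 410 and 357 CPM (2.19 ± 0.17). Nfe2l2, the master factor of the antioxidant programme, went from 125, 128, 133 and 140 to 425, 410, 507 and 429 CPM (1.75 ± 0.09), and its target Txnrd1 rose by 1.65 ± 0.18. Ncf1, an organiser of the phagocyte NADPH oxidase, fell by 0.86 ± 0.09. The metallothionein gene Mt2A (5.30 ± 0.52), the siderophore-binding gene Lcn2 (4.48 ± 0.85) and the haptoglobin gene Hp (2.16 ± 0.44) rose, while Aco1, an iron sensor, fell by 0.76 ± 0.15. Of 30 genes of the unfolded protein and amino acid stress responses, 11 rose and 3 fell (median 0.21). Without LPS replicate 2 the number that fell was 5. Atf4, the main factor of the amino acid response, rose from 97, 88.9, 91.3 and 107 to 192, 208, 243 and 217 CPM (1.16 ± 0.10), and its targets Trib3 (3.98 ± 0.76), Asns (2.47 ± 0.36) and Chac1 (2.82 ± 0.39) rose too. The chaperone gene Hspa5, a marker of endoplasmic reticulum stress, did not pass (0.08 ± 0.09, adjusted p = 0.541).

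Of 31 apoptosis and survival genes 15 rose, on both sides of the decision, and 16 did not pass. Birc3 (2.59 ± 0.23) and Mcl1 (1.90 ± 0.18) protect from cell death, whereas Pmaip1 (3.32 ± 0.37) and Fas (1.73 ± 0.28) promote it. Cdkn1a, the gene of p21, which blocks the cell cycle, rose from 5.23, 3.34, 3.36 and 3.22 to 13.8, 23.6, 21.6 and 18.7 CPM (2.37 ± 0.27). The proliferation marker gene Mki67 did not pass (-0.12 ± 0.30, adjusted p = 0.807). Of 54 cell cycle genes 7 rose and 10 fell, 31.5% against 29.6% over all genes. The number that fell was 5 without LPS replicate 1 and 6 without PBS replicate 2 or 4 or LPS replicate 3 or 4. Ribosomal protein genes rose in 20 of 67 cases by small amounts (median 0.14) and fell in 0. The share called was 29.9%, against 29.6% over all genes, of which 15.2% were higher. Without PBS replicate 2 or LPS replicate 3 the number that rose was 12, and without PBS replicate 3 it was 13. Lysosomal genes changed in 14 of 43 cases (5 higher, 9 lower), 32.6% against 29.6% over all genes. Cd63, a tetraspanin of late endosomes, rose by 0.94 ± 0.11 and Naglu, a heparan sulphate hydrolase, fell by 0.54 ± 0.10. The 5 became 2 or 3 without PBS replicate 1 or 2 or LPS replicate 3 or 4, and the 9 became 5 without LPS replicates 1 and 2.

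Markers of other cell types moved with LPS in some libraries. Ighm, the immunoglobulin mu chain of B cells, fell from 60.2, 81.6, 63 and 52.9 to 6.31, 7.9, 8.71 and 5.18 CPM (3.20 ± 0.20), and the summed level of 12 B cell markers was from 104 to 123 CPM with PBS and from 30.8 to 45.6 CPM with LPS. Ighm alone made up a mean of 64.4 CPM of that sum with PBS and of 7.03 CPM with LPS. Of 10 tested B cell markers 2 fell, Ighm and Fcrla, 20% against 29.6% over all genes. Pax5 was at 0 in all 8 libraries. Of 24 tested genes typical of T and NK cells, 11 rose and 13 did not pass. The number was 6 without LPS replicate 4 and 7 without PBS replicate 3. Their mean log2 CPM was -0.03, -0.53, -0.31 and 0.26 with PBS and 0.08, 0.61, 1.85 and 1.79 with LPS, so replicates 3 and 4 were highest. Gzma, a granzyme of cytotoxic cells, went from 0.852, 0.698, 0.92 and 1.14 to 3.88, 16.1, 44.7 and 34.9 CPM (4.78 ± 0.70), and perforin (Prf1) rose by 3.80 ± 0.67. The T cell receptor chain gene Cd3e did not pass (1.18 ± 0.89, adjusted p = 0.352) and stayed at most at 0.303 CPM. The summed level of the list was from 451 to 489 CPM with PBS and from 619 to 865 CPM with LPS. The LPS libraries summed to 625, 619, 858 and 865 CPM. Besides Gzma, Prf1 stood at 7.65, 34.1, 90.6 and 77.4 CPM in them and Ccl5 at 11.7, 25, 80.9 and 69.8 CPM. Most of each sum came from other members, and these genes were higher in replicates 3 and 4, where the sum was higher. The part of T and NK cell RNA in the sum was not tested. Ccl5 belongs to this list. Its part in the chemokine and interferon results was not tested.

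Of 17 border-associated macrophage markers 6 rose and 2 fell, with summed levels from 607 to 698 CPM with PBS and of 659, 1430, 1220 and 1020 CPM with LPS. Mrc1, their mannose receptor, overlapped (80.4, 75.1, 92.1 and 86.4 with PBS and 76.3, 273, 192 and 154 with LPS; 1.06 ± 0.28). The mean log2 CPM of this list was 3.44, 4.95, 4.85 and 4.41 with LPS, so replicate 1 was the lowest of the 8 libraries. For the interferon list the same replicate was the lowest of the 4 LPS libraries. Cd38, an ectoenzyme in the same list, rose from 2.86, 3.24, 3.31 and 3.37 to 12.4, 38.6, 43.8 and 31.3 CPM (3.30 ± 0.29). Of 13 tested neutrophil markers 4 rose, among them Il1r2, Lcn2 and Trem1 named above, and 1 fell (median 1.10). Their mean log2 CPM was 0.88, 1.41, -0.34 and 0.26 with PBS and 2.73, 2.66, 1.66 and 1.68 with LPS, higher in every LPS library. Their summed level was from 325 to 409 CPM with PBS and from 291 to 340 with LPS, and Ltf, Elane and Mpo were at 0 in all 8 libraries. S100a8 (1.10 ± 1.03, adjusted p = 0.47) and S100a9 (0.98 ± 1.08, adjusted p = 0.547) did not pass. Csf3r, which makes up most of that sum, fell by 0.57 ± 0.08. Of 20 monocyte markers 7 rose, among them Hp and Thbs1 named above, and 3 fell, among them Ccr2. Summed levels were from 282 to 361 CPM with PBS and from 405 to 724 CPM with LPS. Of 12 tested astrocyte markers 2 rose and 1 fell (median 1.16), and their mean log2 CPM was 2.14, 1.85, 1.62 and 1.97 with PBS and 2.85, 3.61, 2.73 and 2.95 with LPS, higher in every LPS library. The 1 that fell was lost without PBS replicate 3 or 4 or LPS replicate 3 or 4. Of 11 oligodendrocyte markers 2 rose, 0 without PBS replicate 4 or LPS replicate 2 and 1 without PBS replicate 1, 2 or 3 or LPS replicate 1 or 3. Of 10 endothelial and mural markers 1 rose, a call lost without any 1 PBS library or LPS replicate 2. The shares called were 25% of astrocyte, 18.2% of oligodendrocyte and 10% of endothelial and mural markers, against 29.6% over all genes. They were 38.5% of neutrophil, 50% of monocyte, 47.1% of border-associated macrophage and 45.8% of T and NK cell markers. The part of any of these cell types in the genes above was not tested.

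**Figure D5:**
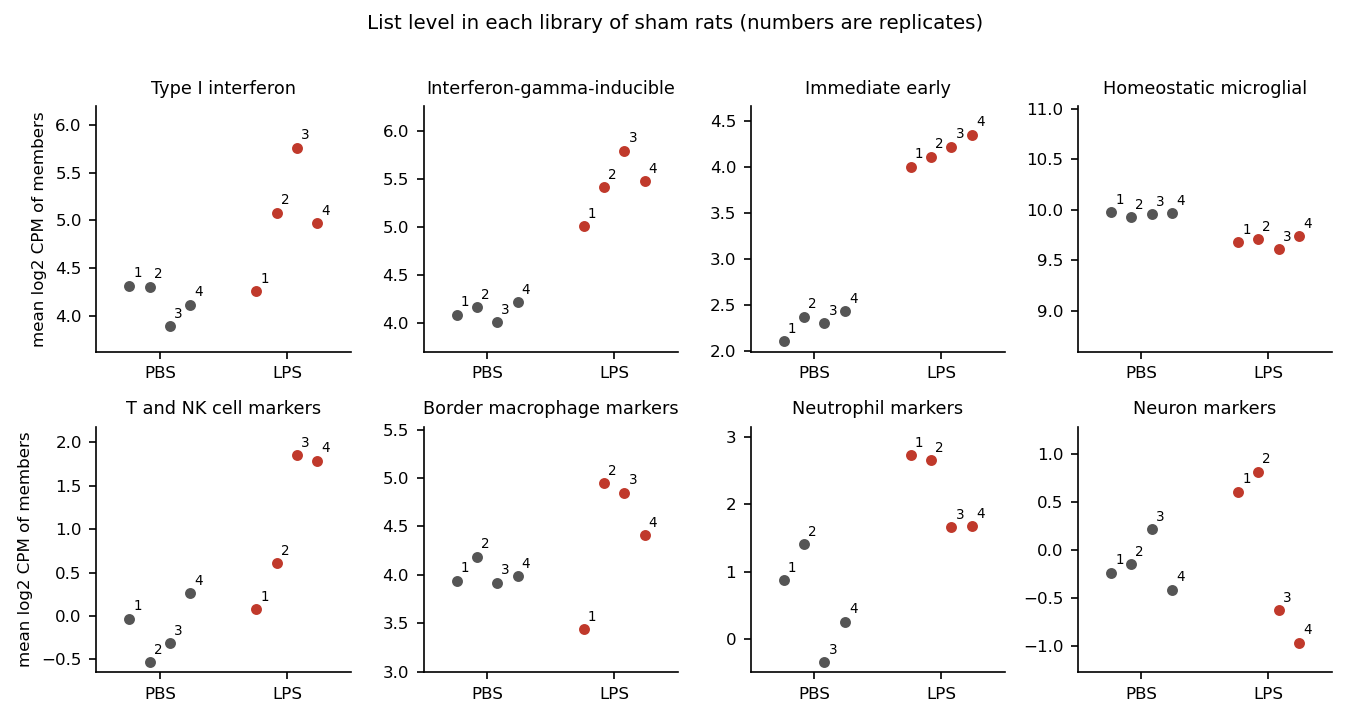
Mean log2 CPM over the tested members of 8 gene lists in each sham-irradiated library, with the replicate number beside each point; axes differ between panels. LPS replicate 1 lies within the PBS range for type I interferon genes (4.26) and below it for border macrophage markers (3.44), while all LPS libraries are above PBS for immediate early and interferon-gamma-inducible genes.

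The response was then set against that of irradiated rats, which shares no library with it. Of the 4031 genes changed in sham rats, 3810 had the same sign in irradiated rats and 2722 were called there in that direction. Over all 13608 genes, 4277 were called in irradiated rats in either direction. The difference between the responses passed the test in 171 of 13608 genes (1.26%), 83 with a more positive and 88 with a more negative change in irradiated rats. The number was from 98 to 113 without sham PBS replicate 1 or 3, irradiated PBS replicate 3 or 4, irradiated LPS replicate 4, or both irradiated replicates numbered 1, and it was 423 in DESeq2. Egr1 rose by 4.47 ± 0.32 in sham and by 1.38 ± 0.28 in irradiated rats (difference -3.09 ± 0.40, adjusted p = 0.00102). Pim1 also rose more in sham rats (difference -2.24 ± 0.40, adjusted p = 0.00714), a call lost in limma voom. Bcl3 (-1.61 ± 0.35), Cdkn1a (-1.66 ± 0.35) and Phlda1 (-1.34 ± 0.29) differed in that direction. These calls were lost in limma voom and without 9, 7 and 7 of 16 single libraries. Cd274 rose by 0.99 ± 0.20 in sham and by 3.11 ± 0.21 in irradiated rats (difference 2.13 ± 0.29, adjusted p = 0.00102), and Sod2 by 2.19 ± 0.17 and 3.81 ± 0.18 (difference 1.62 ± 0.23). Hif1a (0.77 ± 0.12), Tnfaip3 (1.23 ± 0.24) and Cflar (0.68 ± 0.14), an inhibitor of death receptor signalling, also had larger rises in irradiated rats. The call of Tnfaip3 was lost without both irradiated replicates numbered 1, and that of Cflar without sham PBS replicate 3 or irradiated LPS replicate 4. AABR07059663.1 fell by 2.33 ± 0.14 in sham rats and changed by -1.17 ± 0.13 in irradiated rats (difference 1.15 ± 0.19). Ighm fell by 3.20 ± 0.20 in sham rats and changed by -1.98 ± 0.18 in irradiated rats (difference 1.21 ± 0.26). That call was lost in limma voom, with replicate number in the model and without 6 of 16 single libraries. Stat3 (difference -0.31 ± 0.12, adjusted p = 0.284) and Socs3 (0.35 ± 0.27, adjusted p = 0.693) did not pass this test.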

How the data were processed

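RNA of sorted rat microglia was sequenced in 16 samples, 8 of them from sham-irradiated rats. The authors deposited whole-number counts of reads for each Ensembl gene. The submitters' processing notes name the rat build mRatBN7.2 and the tools HTSeq 2.0.2, FastQC 0.11.9 and fastp 0.23.2. For aligner, annotation release and strand, nothing is given in the sources used here, so antisense and overlapping genes and close paralogs cannot be told apart with certainty. A deposited count table by symbol held the same sums (0 of 349472 cells differed).

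All 16 libraries entered a single quasi-likelihood model in edgeR 4.0.16 under R 4.3.3, with robust moderation, 1 coefficient per group, TMM scaling and the filterByExpr filter. Adjusted p values are Benjamini-Hochberg values over 13608 genes, called under 0.05, and each SE was derived from the fold change and its F statistic (log2 fold change divided by the square root of F). The common biological coefficient of variation was 0.289. Mean log2 CPM used a prior count of 2. Replicates of a group differed by more than sampling noise in all 12 pairs (chi-square per degree of freedom from 20.6 to 37.3). Replicate numbers were not used as pairs in the model, although some deviations were shared by number (see the closing section).

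The 51 gene lists (1193 tested genes) and the named genes were chosen with earlier results of these data known. Named genes are a panel, the 12 largest rises and 12 largest falls (called, no overlap of groups, mean log2 CPM 3 or more), and the largest rise and fall of each list (mean log2 CPM 1 or more). These further list members were chosen after their values were seen: Adora1, Arntl, Asns, Atf4, Birc3, Cd180, Cd3e, Cd74, Cflar, Cgas, Cish, Cry1, Csf3, Cxcl3, Fas, Fcrla, Fli1, Gapdh, Gpr84, Hspa5, Ier3, Ifi30, Il10ra, Il12a, Il18, Il1r2, Il4r, Il6st, Irf5, Irf8, Jdp2, Ldha, Lifr, Lpar1, Lpar4, Lpar6, Ly86, Map3k8, Mcl1, Mef2c, Mitf, Mrc1, Mt2A, Myd88, Nfe2l2, Nfkb1, Nfkb2, Osmr, P2ry13, P2ry6, Per2, Phlda1, Prf1, Ptpn1, RT1-Ba, RT1-DMa, RT1-DMb, RT1-Db1, Relb, Rgs2, S100a8, S100a9, Samhd1, Socs1, Spr, Tfec, Tlr1, Tlr6, Tlr7, Tlr9, Tnip3, Trib3 and Txnrd1. Isg15 had 0 counts in all libraries and was not tested, and Slc40a1 and Ptges were not analysed here. For genes at 0 with PBS the fold is a bound against a floor of 3 counts. Setting such genes to their bound moved no list median (largest change 0.00). Alternatives were other scaling, filters and tests (DESeq2 1.42.0, limma 3.58.1), leaving out each library, a replicate block and testing for changes beyond 1.5-fold. Promoters came from RefSeq (GRCr8).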

Additional observations from a re-analysis of the deposited data

Results flagged for a closer look

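The response differed between sham and irradiated rats by the interaction test (edgeR, adjusted p under 0.05) in 16 of the named genes. As log2 differences, irradiated minus sham, the positive ones were Cd274 at 2.13, Rgs18 at 1.93, Sod2 at 1.62, Bhlhe40 at 1.49, Tnfaip3 at 1.23, Ighm at 1.21, AABR07059663.1 at 1.15, Mitf at 0.95, Hif1a at 0.77, Cflar at 0.68 and Pla2g15 at 0.60. The negative ones were Egr1 at -3.09, Pim1 at -2.24, Cdkn1a at -1.66, Bcl3 at -1.61 and Phlda1 at -1.34. Cd274, Egr1 and Sod2 passed in every alternative, whereas Pla2g15 was lost without 14, Bhlhe40 and Rgs18 without 13, Mitf without 10 and Bcl3 without 9 of 16 single libraries. In limma voom Bcl3, Bhlhe40, Cdkn1a, Ighm, Phlda1, Pim1 and Rgs18 did not pass.

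A single library stood apart from the other 3 of its group, by Dixon's criterion, in 15 of 399 groups of named genes with all values of at least 1 CPM. Chance alone gives about 1 in 20 groups. Replicate 2 with PBS was the library in 6 of them: Casp1 at 79.5 CPM, Ccr2 at 8.57, Fkbp5 at 2.19, Ldha at 205, Pla2g15 at 406 and Tgfbr1 at 4070. The other PBS cases were replicate 1 for Cdkn1a (5.23 CPM) and replicate 4 for Nr3c1 (77.1). Replicate 3 with LPS stood apart for Casp1 (119 CPM), Irf1 (585) and Kcna2 (4.01), replicate 2 for Nlrp3 (419) and Sall1 (336), replicate 4 for Icam1 (267) and replicate 1 for Samhd1 (28.2).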

How the results depend on the processing

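Counts of changed genes kept within 1.5 times of 4031 (from 3316 to 4118 without single libraries, 4559 in DESeq2, 3954 in limma voom, 3750 from the 8 sham libraries alone), except in a test against a fold change of 1.5, where 937 passed, 589 higher and 348 lower. With library totals alone 1927 were higher and 2206 lower. Of 198 named genes called, 130 kept the call in every alternative and 44 lost it only in the test against a fold change of 1.5. The difference between responses was the least stable count: 171 genes, 23 against a fold change of 1.5, 423 in DESeq2, 98 without both irradiated replicates numbered 1 (chosen after seeing the data) and from 103 to 191 without single libraries. The cause was not tested.

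Deviations from the group mean were shared in part by replicate number, and 3 of 4 numbers correlated best with their own. Over 8160 genes, numbers 1, 2 and 4 correlated by 0.211, 0.204 and 0.224. The best other number gave 0.007, 0.011 and 0.021 for these. Number 3 correlated by 0.036, under the 0.107 of its best other number. The main model therefore left the numbers unpaired. The second principal component of the 8 sham libraries (9.8% of the variance) fell with each number in both groups. Its values were 10.93, 2.39, -7.22 and -10.95 (PBS), then 16.18, 10.42, -5.47 and -16.28 (LPS). The cause was not tested. With a replicate block 4168 genes changed and 221 differed between responses. Among genes with values in the report, the block added Irf8 (0.26, adjusted p = 0.031) and Nlrp3 (0.32, adjusted p = 0.013), and the differences of Ighm, Bhlhe40 and Rgs18 did not pass.

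Genes whose sign turned were not called in any setting. Ly96 gave 0.00 with RLE factors, 0.04 in limma voom, 0.01 from the sham libraries alone and from -0.07 to 0.09 without single libraries. Without single libraries, C3 gave from -0.12 to 0.05, Casp1 from -0.04 to 0.16, Clec7a from -0.17 to 0.29, Il12b from -0.33 to 0.47 and Mki67 from -0.35 to 0.16. Without sham LPS replicates 1 and 2 (chosen after seeing the data) S100a8 gave -0.02 and S100a9 -0.31.

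Values of genes under 1 CPM rest on few counts, so their intervals are wide.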
